A study of Homo sapiens with 12 samples.

Results

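The regions described here are the open chromatin of KO-52 cells at baseline, that is, all 187113 ATAC-seq peaks on chromosomes 1 to 22 and X that were called in cells carrying an empty vector (EV) and kept in DMSO. They were taken from a series of 6 peak lists with 1256395 peaks on the same chromosomes, and 591 of the 187704 entries of the EV, DMSO list lay on chromosome Y, the mitochondrial genome or unplaced sequence and were left out. KO-52 is an acute myeloid leukemia (AML) cell line with biallelic CEBPA mutations. The series holds 12 libraries, with KO-52 cells that carry the CEBPA isoforms p42 or p30 as ERT2 fusions or the empty vector, in DMSO or in tunicamycin, and 2 replicates of each. The empty vector cells carry neither fusion, DMSO is the solvent control of the tunicamycin treatment, and the study's methods state that 4-hydroxytamoxifen, the ligand that moves ERT2 fusions into the nucleus, was also given to empty vector controls. KO-52 is 1 cell line, so the list is that of 1 leukemia in culture.

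In ATAC-seq the Tn5 transposase inserts sequencing adapters where DNA is not covered by nucleosomes, and a peak is a place where such insertions accumulate over the local background. Each library was made from nuclei of 50000 cells, and the authors called the peaks on the reads of both replicates together. No value therefore has a replicate spread, no test between replicates was possible, and intervals given below are 95% Wilson binomial intervals that cover the counting of peaks or genes only. The peaks are ranked by −log10 q, the authors' peak-calling significance adjusted for multiple testing, and a percentile gives the place of a peak in that ranking of all 187113. The tags at a summit, meaning the sequenced ends that pile up there after duplicates were removed, were solved from the deposited values and ranged from 4 to 109 with a median of 11.0. The lowest background corresponded to about 22250000 tags in the pooled library. At this depth a region without a peak is one where no peak was detected, which does not show that it is closed.

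Myeloid cells are made from hematopoietic stem cells through progenitors in which PU.1 (SPI1), RUNX1 and the CEBP factors open and occupy regulatory DNA. CEBPA is needed for the step toward granulocytes, and its loss or mutation blocks that step and leaves blasts that resemble early myeloid progenitors. Active promoters are open over the transcription start, while enhancers open at a distance in a pattern that differs between cell types, and the DNA letters at an open site name the families of factors that can bind there.

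Sequences at summits are shown first, since the distribution of motifs is one of the main features of the list. The 5 below come from distal peaks outside exons, within 50 kb of a hematopoietic gene listed for this work, each being the strongest such peak with a match to the named motif centred within 25 bp of the summit. The bases are those of the hg38 reference at the summit and 50 on each side of it, on the forward strand, and capitals mark the match.
CTCF, 15.3 kb upstream of EGR1, chr5:138450110-138450210: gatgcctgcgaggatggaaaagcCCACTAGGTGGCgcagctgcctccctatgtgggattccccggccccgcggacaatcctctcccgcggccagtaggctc
PU.1, 53.9 kb upstream of the RUNX1 start, in an intron of a longer transcript, chr21:35103137-35103237: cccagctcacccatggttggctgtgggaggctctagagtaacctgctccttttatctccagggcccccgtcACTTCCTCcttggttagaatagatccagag
RUNX, 32.5 kb upstream of CD28, chr2:203674077-203674177: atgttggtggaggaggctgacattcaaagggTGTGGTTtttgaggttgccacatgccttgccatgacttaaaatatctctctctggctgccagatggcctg
AP-1, 25 kb downstream of the HOXB1 start, chr17:48505959-48506059: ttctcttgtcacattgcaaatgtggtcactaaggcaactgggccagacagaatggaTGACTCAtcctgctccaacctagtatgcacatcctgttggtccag
CEBP, 68.9 kb downstream of the FLT3 start, in an intron, chr13:28031646-28031746: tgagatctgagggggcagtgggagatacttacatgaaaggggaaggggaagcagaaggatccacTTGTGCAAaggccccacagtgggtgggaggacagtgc
The peak with the CTCF match had 38 tags and a −log10 q of 38.1, and the 4 others had −log10 q values of 32.5, 43.3, 36.8 and 38.4 in the order shown. All 5 stood at or above the 96.5th percentile of the list.

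The strongest distal peaks around 2 further genes are shown because they lay far from the promoter and were stronger than it. Capitals here mark every match to any of the 18 motifs searched.
PROM1, 82.4 kb downstream of the start, in an intron, chr4:16001575-16001675: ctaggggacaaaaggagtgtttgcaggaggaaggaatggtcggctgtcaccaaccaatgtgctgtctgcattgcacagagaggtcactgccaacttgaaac
SERPINB10, 28.3 kb downstream of the start, chr18:63936227-63936327: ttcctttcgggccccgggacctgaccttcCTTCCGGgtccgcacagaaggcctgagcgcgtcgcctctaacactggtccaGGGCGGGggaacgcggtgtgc
PROM1 encodes the stem cell surface protein CD133, and its distal peak had a −log10 q of 42 with 43 tags, against 3.07 with 7 tags at its promoter. SERPINB10 encodes a serine protease inhibitor of myeloid cells, and its distal peak reached 44.6 with 44 tags, against 3.83 with 6 tags at the promoter. The window near SERPINB10 holds an ETS and an SP/KLF match, and the one in PROM1 holds no match to any of the 18 motifs.

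The open regions were narrow and mostly distal. The median peak was 153 bp wide, with 93 and 289 bp as the lower and upper quartiles, and the widest was 2455 bp. A width of 60 to 100 bp was found for 53180 peaks (28.4%), and 60 bp was the shortest width the caller kept. Widths over 500 bp were found for 19789 peaks (10.6%) and over 1000 bp for 3062. Together the peaks covered 43.8 Mb, or 1.45% of the chromosomes. The gap from one peak to the next had a median of 7232 bp.

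By the position of the summit, 37996 peaks (20.3%, interval 20.1 to 20.5%) lay at promoters, defined as the 1000 bp on each side of any annotated transcription start. Promoters so defined are 7.21% of the genome, so peaks fell there more often than the length of the class alone gives. Introns held 46.4% of peaks and 51.3% of the genome, intergenic DNA 29.6% and 38.2%, and exons away from promoters 3.74% and 3.30%. Promoter peaks were wider, with a median of 246 bp against 142 bp for the 149117 distal peaks. They also carried 18.0 tags at the summit against 10.0, and held 33.7% of all bases in peaks.

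The share of promoters was highest among the strongest peaks. It was 13.1% in the weakest decile of −log10 q, stayed between 14.3 and 24.3% in the second to the eighth, and reached 27.3% and 41.5% in the ninth and the tenth. Ties in −log10 q made the deciles unequal in size, from 11412 to 22853 peaks. Median width changed along with it, from 90 bp in the weakest decile to 491 bp in the strongest. Even among the strongest peaks, most lay away from promoters, 33.4% in introns and 21.9% in intergenic DNA.

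**Figure D1:**
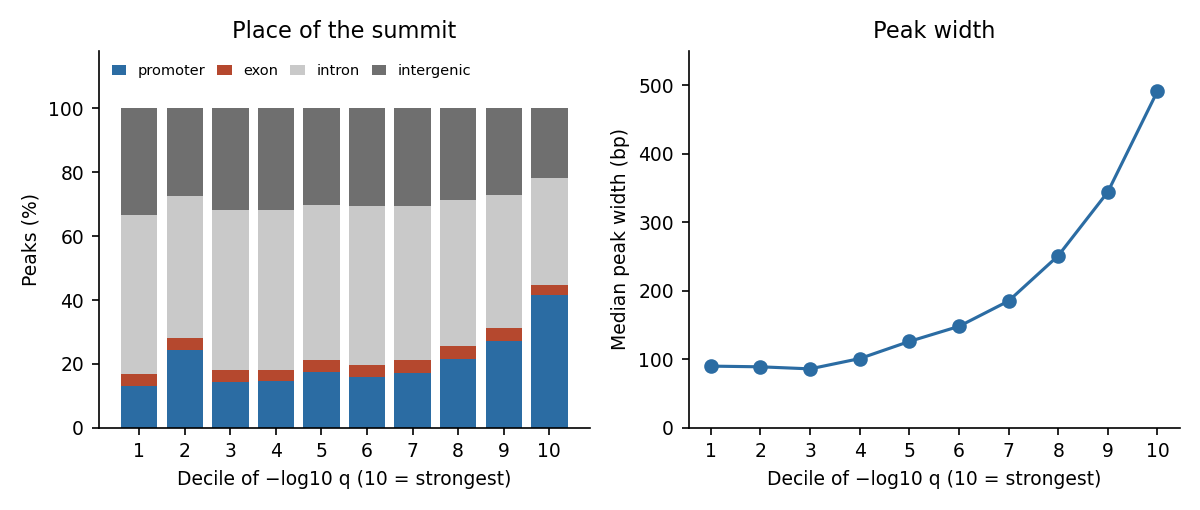
Left, percent of peaks with the summit at a promoter, exon, intron or intergenic position in each decile of −log10 q of the 187113 peaks; right, median peak width in bp in the same deciles. The promoter share is 13.1% in the weakest and 41.5% in the strongest decile, and the median width 90 and 491 bp.

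Peaks were strongest close to a transcription start of any gene. Summits within 100 bp of a start were 8.06% of the list and had the highest median −log10 q, 18.5. From there to 1000 bp the median was 7.37, from 1 to 10 kb 7.22, from 10 to 100 kb 6.21 and beyond that 5.51. The class from 10 to 100 kb was the largest, with 40.9% of peaks, while 3.86% lay further than 100 kb from any start.

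Around the canonical start of the 19962 protein-coding genes, summits were placed just upstream. The 50 bp bin from −100 to −50 bp held the most, 145 summits per 1000 genes, against 4.01 and 5.06 in the outermost bins at 2000 bp. There were 9631 summits from 1 to 300 bp upstream and 2901 from the start to 300 bp downstream. After a low of 8.32 per 1000 genes at 100 to 150 bp downstream, the number rose again to 18.6 at 400 to 450 bp and 20.1 at 550 to 600 bp, then declined. No such second rise was seen upstream, where the bins at the same distances, from −450 and −600 bp, held 14.3 and 13.9. Genes sharing a start region count the same summit more than once.

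**Figure D2:**
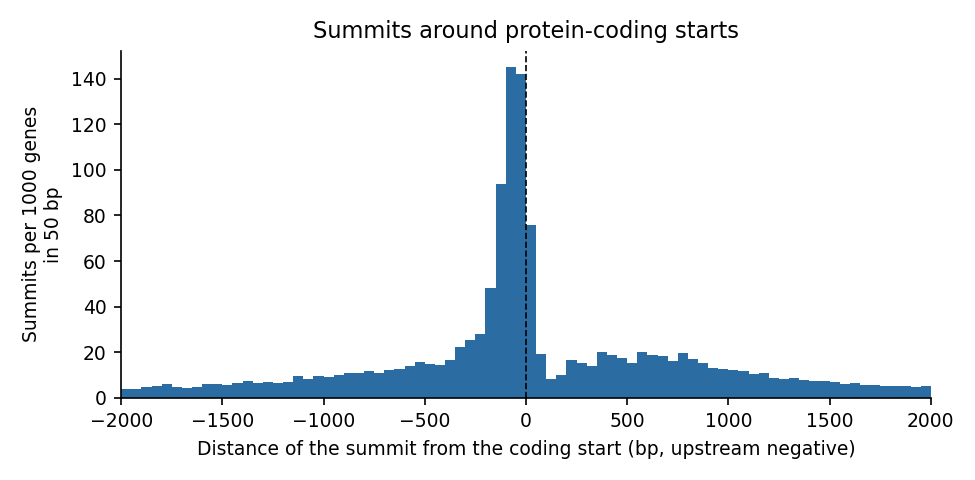
Number of peak summits per 1000 protein-coding genes in bins of 50 bp from 2000 bp upstream (negative) to 2000 bp downstream of the canonical start, with the start at the dashed line. The highest bin is at −100 to −50 bp with 145 per 1000 genes, and a lower second rise of up to 20.1 lies downstream.

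The strongest peaks of the list were not at hematopoietic genes. Of the 5 highest by −log10 q, 4 shared words of 31 bases with the mitochondrial genome, and only 8 peaks of the whole list did. These 4 lay on chromosome 17 at 22521350 to 22521528 with 81 tags, on chromosome 1 at 633852 to 634172 over the pseudogene MTATP6P1 with 109 tags and at 629690 to 630040 over MTND2P28 with 96 tags, both over 50 kb from the nearest coding start (OR4F16), and on chromosome 5 at 134926781 to 134926894 over MTND4P12, in the gene PCBD2, with 88 tags. MTATP6P1, MTND2P28 and MTND4P12 are nuclear copies of mitochondrial genes, and reads of the mitochondrial genome can align to such copies. The shares of their words found in the mitochondrial genome were 6.71, 66.3, 76.0 and 36.9% in that order, and their −log10 q values 115, 115, 96.6 and 114. Their part in the height of these peaks was not tested. The fifth peak, at 43251395 to 43252001 on chromosome 17 in CCDC200, shared none and had a −log10 q of 89.8. The coding start nearest to the first peak, on chromosome 17, is that of KCNJ18, 828880 bp away.

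The widest peaks were mostly at promoters of broadly used genes. They were 2074 bp at PCID2, which encodes a messenger RNA export factor, 2050 bp at AGBL5 and at NFE2L2, the regulator of the response to oxidants, and 2047 bp at RPL7, a ribosomal protein gene. The widest of all, 2455 bp on chromosome 13 from 91346957 to 91349411, lay 51121 bp from the nearest coding start, that of GPC5, at the start of a non-coding transcript. By tags, the tallest distal peaks after the one near KCNJ18 had 80, 70, 68 and 68 tags and lay nearest to PROS1, CCL3L3, TPTE and IRS2. Those near PROS1 and TPTE were 503199 and 4149650 bp from that start, so the gene name is only a landmark. IRS2 encodes an adaptor of insulin receptor signaling, and its peak lay 86232 bp away in an intron of a non-coding gene.

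Peak density differed between chromosomes by over 3 times, from 30.4 peaks per Mb on chromosome X to 99.4 on chromosome 13, with 64.3 per Mb over all. Chromosome 19, which has the most protein-coding genes per Mb (25.3), came next to the top with 92.5. Chromosome 13 has the fewest, 3.30 per Mb, and held 30.1 peaks per gene, against 3.66 on chromosome 19. Its excess was in distal peaks, of which it had 90 per Mb, ahead of chromosome 8 with 68.5, chromosome 1 with 64.7 and chromosome 6 with 57.9. Only 9.44% of its peaks were at promoters, the lowest share of any chromosome, and their number per protein-coding gene was the highest at 2.85. That number also counts peaks at starts of non-coding genes, so it is not the number of promoter peaks that a coding gene has.

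The high density of chromosome 13 was spread along its length. In its 9 windows of 10 Mb, distal peaks ran from 70.8 to 104 per Mb, so that the lowest window was above the median window of every other chromosome. The highest medians among the others were 68.2 on chromosome 8 and 65.6 on chromosome 1, and on chromosome X the windows ran from 6.30 to 37.5. The peaks of chromosome 13 were weaker than elsewhere, with a median −log10 q of 5.84 against 7.37 over all and a median of 9.0 tags. At a −log10 q of at least 10 it was no longer the densest, with 29.9 peaks per Mb against 42.7 on chromosome 19, 31.9 on 17, 31.5 on 1 and 31.1 on 22. The lowest background that the caller uses applied to 22.1% of its peaks, a share that ran from 18.2% on chromosome 19 to 51.3% on chromosome X. The copy number of these chromosomes was not measured here, and its part in the densities was not tested. Over the 23 chromosomes, Spearman's rho with protein-coding genes per Mb was 0.31 for all peaks and −0.01 for distal peaks, points that share 1 library and differ in background.

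**Figure D3:**
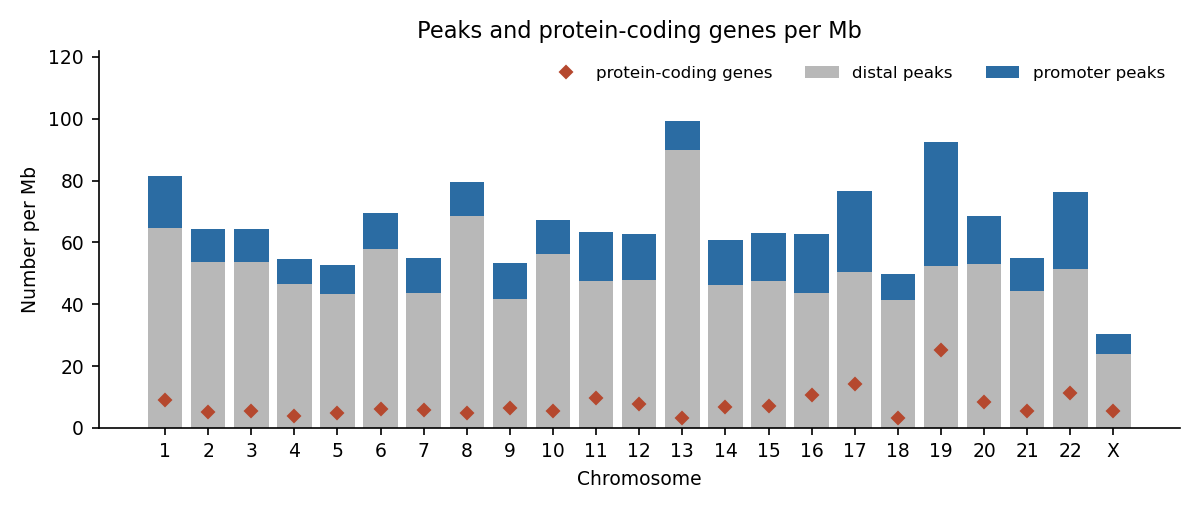
Number of distal peaks (grey) and promoter peaks (blue), stacked, and of protein-coding genes (diamonds) per Mb of sequence for each chromosome. Chromosome 13 has the most peaks, 99.4 per Mb, with the fewest genes, 3.30 per Mb, chromosome 19 has 92.5 peaks and 25.3 genes per Mb, and chromosome X has the fewest peaks, 30.4.

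Windows with more genes had more peaks. In 2915 windows of 1 Mb over all chromosomes, rho between the number of peaks and of coding starts was 0.66, and 0.71 without chromosomes 8 and 13. Windows with no coding start had a median of 24.0 peaks, those with 1 to 4 starts 47.0, with 5 to 9 starts 72.0, with 10 to 19 starts 92.0 and with 20 or more 110. Neighboring windows are not independent, so these are given as a description. The window with the most peaks, 183, was the second Mb of chromosome 19, with 39 coding starts, among them STK11, CIRBP, GPX4, POLR2E and TCF3, the E-protein gene of early lymphoid cells. Next came 182 peaks in the window from 85000001 to 86000000 on chromosome 16, with only 9 coding starts, among them IRF8, a regulator of monocytes and dendritic cells, and GSE1. A window with 173 peaks on chromosome 9 holds NOTCH1, CARD9 and TRAF2, one with 172 on chromosome 19 holds JUND, IFI30 and IL12RB1, and one with 168 on chromosome 17 holds ACTG1, HGS and MAFG.

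Windows that went against this relation were found at both ends. On chromosome 11, 2 neighboring windows with 21 and 32 coding starts, nearly all of olfactory receptors, had 10 peaks each. On chromosome 21 a window of 34 coding starts, mainly keratin-associated proteins, had 25. In the other direction, the window of IRS2 on chromosome 13 had 128 peaks with 1 coding start, that of GPC5 had 123 with 1, and that of KIF13B and DUSP4 on chromosome 8 had 130 with 2. A window at the end of chromosome 14 with no protein-coding start had 120 peaks, and most of it belongs to the immunoglobulin heavy chain locus.

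Peaks gathered in runs, though not in long ones. When peaks separated by at most 2000 bp were joined, 110944 (59.3%) stayed alone, 24172 runs had 2 peaks, 7781 had 3 or 4 and 549 had 5 to 9. No run reached 10. Runs of 5 or more held 1.56% of peaks, 54.1% of them at promoters, and 304 of the 549 (55.4%) contained a protein-coding start. The 3 runs of 9 peaks lay over the start of GSE1 on chromosome 16, over ARID5B on chromosome 10 and within LZTS2 on chromosome 10. ARID5B encodes a DNA-binding chromatin cofactor known from leukemia genetics. Runs of 8 were found at BCL9L and UPK2, at SPRY2, an inhibitor of receptor tyrosine kinase signaling, at ABCA2 and FUT7, which makes selectin ligands of leukocytes, and on chromosome 2 at a place without a protein-coding gene.

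Several of the runs of 5 or more touched genes of the hematopoietic lists. RUNX1 had 6 peaks within 3.23 kb, 5 of them at promoters, at the start of its shorter transcripts. MYB, the progenitor regulator, had 5 within 3.67 kb, and LYL1, a partner of TAL1 in stem cells, 5 within 2.85 kb. MPO, the myeloperoxidase gene, had 5 within 4.81 kb around its start, and SOX4 had 5 within 1.90 kb. ERG and MSI2 each had a run of 5 that was wholly distal. CD7, ITGAX, CHIT1 and HDC also lay in runs of 5, and so did HOXB3 and HOXB4 together.

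When gaps of up to 4000 bp were allowed, 30 runs had 10 or more peaks, and the longest had 15. One such run covered 29.5 kb on chromosome 7 over the variable segments TRGV1 to TRGV6 of the T cell receptor gamma locus, and the other lay over ZNF516. HOXA3, HOXA6, HOXA7, HOXA9 and HOXA10 lay in a run of 14 peaks over 26.0 kb, of which 12 were at promoters, but its median −log10 q of 4.69 was below the list's median. Further runs lay over SLA and TG, DOK2, KDM6B, ITGB7 and RARG, ZFP36, and LCP1, which encodes the actin-bundling protein of leukocytes.

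Antigen receptor loci had dense peaks. These are the immunoglobulin (IG) and T cell receptor (TR) genes, which are assembled from variable (V), diversity and joining segments in lymphocytes, and most of them have no entry among protein-coding genes. The T cell receptor gamma locus had 28 peaks in 0.129 Mb (218 per Mb), the beta locus 163 per Mb, the heavy chain locus of immunoglobulin 136, the joint alpha and delta locus 128 and the lambda locus 111, all above the 64.3 per Mb of the whole list. These loci hold many segments. For comparison, the 1 Mb windows with 20 or more coding starts had a median of 110 peaks and a 90th percentile of 149. The kappa locus, many of whose segments exist as near-identical copies that reads cannot tell apart, had 47.2 per Mb. Of V segments, 7 of 9 had a peak within 1000 bp of the start in the gamma locus, 35 of 48 in alpha and delta, 25 of 48 in beta, 35 of 49 in the heavy chain, 21 of 37 in lambda and 7 of 44 in kappa. The shares of 77.8% in gamma, 72.9% in alpha and delta and 71.4% in the heavy chain were near the 73.9% of all protein-coding genes with such a peak, and the 3 others were below it. V segments lie close together, so 1 peak can serve several. The highest −log10 q in these loci was 41.8, in the heavy chain locus, and these loci were chosen with their values already known.

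A promoter peak, overlapping the 1000 bp on each side of the canonical start, was found for 14745 of 19962 protein-coding genes (73.9%, interval 73.3 to 74.5%). It was a single peak for 9056 genes, 2 peaks for 4406 and 3 or more for 1283. The strongest promoter peak of a gene had a median percentile of 88.6 and a median of 32.0 tags. Of the 5217 genes without one, 3425 had a summit within 10 kb and 113 had none within 100 kb. This share of 73.9% is the background for each list that follows, and a list near it is not set apart by its count.

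Gene families, chosen after the values were seen and picked by symbol, lay on either side of that background. Genes of basic cell functions nearly all had a promoter peak, with 83 of 84 cytosolic ribosomal protein genes, 77 of 78 mitochondrial ribosomal protein genes, 38 of 40 proteasome genes and 35 of 36 complex I genes. The exceptions were mostly tissue-restricted members, namely RPL3L, PSMB11, PSMA8 and NDUFA4L2, with MRPL23 as the fifth. Of ZNF genes, 475 of 515 (92.2%) had a peak, and of replication-dependent histone genes 59 of 69. Solute carriers, at 229 of 341 (67.2%), were below the background. Olfactory receptors had a peak in 28 of 416 cases (6.73%), bitter taste receptors in 1 of 24, keratins in 8 of 50, keratin-associated proteins in 16 of 94, beta-defensins in 4 of 40 and type I interferons in 5 of 17. Killer Ig-like receptor genes, used by natural killer cells, had a peak in none of 7. Whether reads can be placed uniquely at these genes was not tested. Leukocyte Ig-like receptor genes had a peak in 7 of 10 cases, toll-like receptor genes in 8 of 10 and SIGLEC genes in 9 of 12. The intervals of the leukocyte Ig-like, toll-like and SIGLEC shares all included the background, so these families are not set apart from it.

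The 12 housekeeping genes served as a reference and all had a promoter peak. The highest percentile was 98.6 for RPLP0, with a median of 90.6. ACTB, at 42 tags and a fold enrichment of 5.66 over the local background, stood at only the 79.9th percentile, so a lower percentile does not mean fewer tags where the background is high.

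Of genes listed as surface markers of myeloid blasts, all 12 had a promoter peak with a −log10 q of at least 10, against 61.8% of all genes. Some genes of lymphoid lists had promoter peaks as strong, such as CD22 at 32.3 and PRF1 at 37.6, though most genes of those lists did not reach 10. The count is therefore not a test of the myeloid label of the line. ITGAM, the integrin CD11b of myeloid cells, was the strongest at a −log10 q of 39.5 with 43 tags, its summit 72 bp upstream of the start. LAIR1, an inhibitory receptor, followed with 31.9 and CD33, the sialic acid lectin used to define myeloid blasts, with 29.8 and 31 tags. CD38, FUT4 (which makes the CD15 epitope), CD44, PTPRC (CD45) and ANPEP (CD13) lay between 24.5 and 28.3. SPN and CD7 stood at 16.9 each, HLA-DRA at 15.9, and CLEC12A was the lowest at 10.3 with 12 tags. The median percentile of the list, 91.6, was close to that of the housekeeping genes. The summit of ITGAM is shown as the strongest promoter peak of all listed genes, and its window holds no match to the 18 motifs.
ITGAM promoter, chr16:31259853-31259953: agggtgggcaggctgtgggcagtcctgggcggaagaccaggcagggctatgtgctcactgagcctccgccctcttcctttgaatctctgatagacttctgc

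Myeloid transcription factors had a promoter peak in 12 of 12 cases, of very different strength, against 73.9% of all protein-coding genes. SPI1, which encodes PU.1, was the strongest at 30.6 with 47 tags and a peak of 808 bp whose summit lay 9 bp from the start. EGR1 and EGR2, early response factors of the monocytic path, had 25.4 and 25.1, and CEBPG, the CEBP member without an activation domain, 25.2. GFI1, a repressor that granulocytic differentiation needs, had 20.9 and CEBPD 20.2. CEBPA itself, whose protein is mutated in this line, had 1 peak of 1015 bp with 39 tags and a −log10 q of 14.7, its summit 106 bp upstream. CEBPE, the factor of late granulocytes, had 14.2, with the strongest of 2 peaks at −945 bp from the start, while KLF4 and CEBPB had 13.8 and 11.5. IRF8 was the exception, since its only promoter peak was 60 bp wide with 5 tags at 579 bp downstream of the start and a −log10 q of 2.51 (percentile 5.18). Within 50 kb of IRF8 the strongest distal peak reached 21.1, 29.5 kb downstream of the start, in the window of 182 peaks described above.

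Stem and progenitor regulators had a promoter peak in 17 of 17 cases, 12 of them at a −log10 q of at least 10. The shares over all protein-coding genes were 73.9 and 61.8%. SOX4 led with 27.3 and 47 tags, followed by RUNX1 with 23.8 and MSI2, an RNA-binding protein of stem cells, with 21.6. ERG had 19.1, FLT3 and HHEX 18.4 each, and KIT, the stem cell factor receptor, 16.7. MYB, TAL1, HLF, LMO2 and LYL1 lay between 11.2 and 14.8. CD34, the surface marker of progenitors, had a moderate 9.05 with 20 tags and MEIS1, the HOX cofactor, 7.76. MECOM (5.65), GATA2 (4.68) and PROM1 (3.07) were weak, at percentiles of 39.7, 29.8 and 13.4.

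The long genes of this group also held many distal peaks. RUNX1 and the 10 kb before it had 115 peaks over 1227 kb, a number exceeded among protein-coding genes only by GPC6 and GPC5 on chromosome 13 and by ZFPM2. Per length this was 0.937 peaks in 10 kb, against a median of 0.954 for all coding genes and 0.778 for those with a span of 50 kb or more. ERG had 34 peaks and MSI2 46, at 1.17 and 1.05 per 10 kb. Shorter genes were denser, with 3.08 for TAL1, 2.99 for LMO2, 2.72 for CD34 and 2.37 for SPI1. MECOM, with 25 peaks over 590 kb, was among the sparser at 0.424, and MEIS1 had 0.532.

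Receptors for growth factors and cytokines had a promoter peak in 11 of 12 cases (91.7%, against 73.9% of all protein-coding genes). IFNGR1, a chain of the interferon gamma receptor, was the strongest at 22.7. TLR4 and TLR2, which sense bacterial products, had 20.9 and 19.9 with 23 tags each. CSF2RB, the shared chain of the GM-CSF receptor, had 19.1 and CSF3R, the G-CSF receptor, 10.8 as the strongest of 4 promoter peaks. IL6R had 7.42. EPOR, the erythropoietin receptor, had a peak of 60 bp at 2.49. CSF1R, the macrophage growth factor receptor, had none at its canonical start, and its nearest summit was 2570 bp away. It gained one when every annotated start of the gene was used, and the strongest distal peak within 50 kb of the gene had a −log10 q of 37.3.

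Genes listed for primary granules had promoter peaks more often than those listed for later granules, at the definition used and at every other one tried. With 2000 bp on each side of the start the counts were close, at 11 and 9. Primary granules form in promyelocytes. Of the 12 genes listed under that name, 10 had a promoter peak (83.3%), near the 73.9% of all protein-coding genes. Not all of the 12 encode contents of these granules. LYZ (lysozyme) was the strongest at 26.3, with 23 tags at 74 bp upstream, and CST7, PRSS57, MPO and RNASE2 had 24.2, 22.2, 17.9 and 17.2. For MPO the strongest peak lay 852 bp upstream and no peak overlapped the 500 bp on each side of the start. CTSG had 11.8, while RNASE3, SERPINB10 and AZU1 had 6.14, 3.83 and 3.72. MS4A3 had a peak of 4 tags at 1.79, the lowest of all listed genes. RNASE2 and RNASE3 are close copies, so reads may be placed at either. ELANE (neutrophil elastase) and PRTN3 (proteinase 3) had none at the canonical start, with nearest summits 1721 and 2340 bp away, and both gained one when every annotated start was used.

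Genes of secondary and tertiary granules, which are filled later, had a promoter peak in 5 of 12 cases, below the background of 73.9%. With 2000 bp on each side of the start the counts were 11 primary and 9 later granule genes, against 78.3% of all genes. With every annotated start they were 12 and 7, against 79.9%. At a −log10 q of at least 10 they were 6 and 3, both below the background of 61.8%. CXCR2, a surface receptor for interleukin-8 rather than a granule protein, had 26.2 with 29 tags and CAMP, the cathelicidin gene, 21.4 with 24. BPI, which is a primary granule protein although it was placed in this list, had 19.7, LCN2 6.93 at 759 bp downstream of the start, and MMP9 3.2. LTF (lactoferrin), MMP8, CEACAM8, CHIT1, PGLYRP1, OLFM4 and CD177 had none at the canonical start, and LTF and CHIT1 gained one when every annotated start was used. The nearest summit was 15915 bp from the start of OLFM4 and between 1279 and 2836 bp from those of the 6 others. All 7 had a distal peak within 50 kb of the gene, as did all other listed genes except GP6, and the strongest were 34.5 for CHIT1 and 31 for LTF.

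Monocyte and macrophage genes had a promoter peak in 11 of 12 cases, against 73.9% of all protein-coding genes. Only 5 of the 12 had one at a −log10 q of at least 10, against 61.8% of all. The median percentile of the list was 49.1. CD14, the co-receptor for endotoxin, was the strongest at 20.3 with 25 tags. ITGAX (CD11c) had 15.1, CD163 14.1, LILRB1 13 and CD68 12.7. S100A8, FCGR1A and CLEC7A were between 4.56 and 7.20. FCN1 (2.58), S100A9 (2.47) and MRC1 (2.11) were near the threshold of the list, with 5 to 7 tags. VCAN had none, with a summit 2026 bp away.

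**Figure D4:**
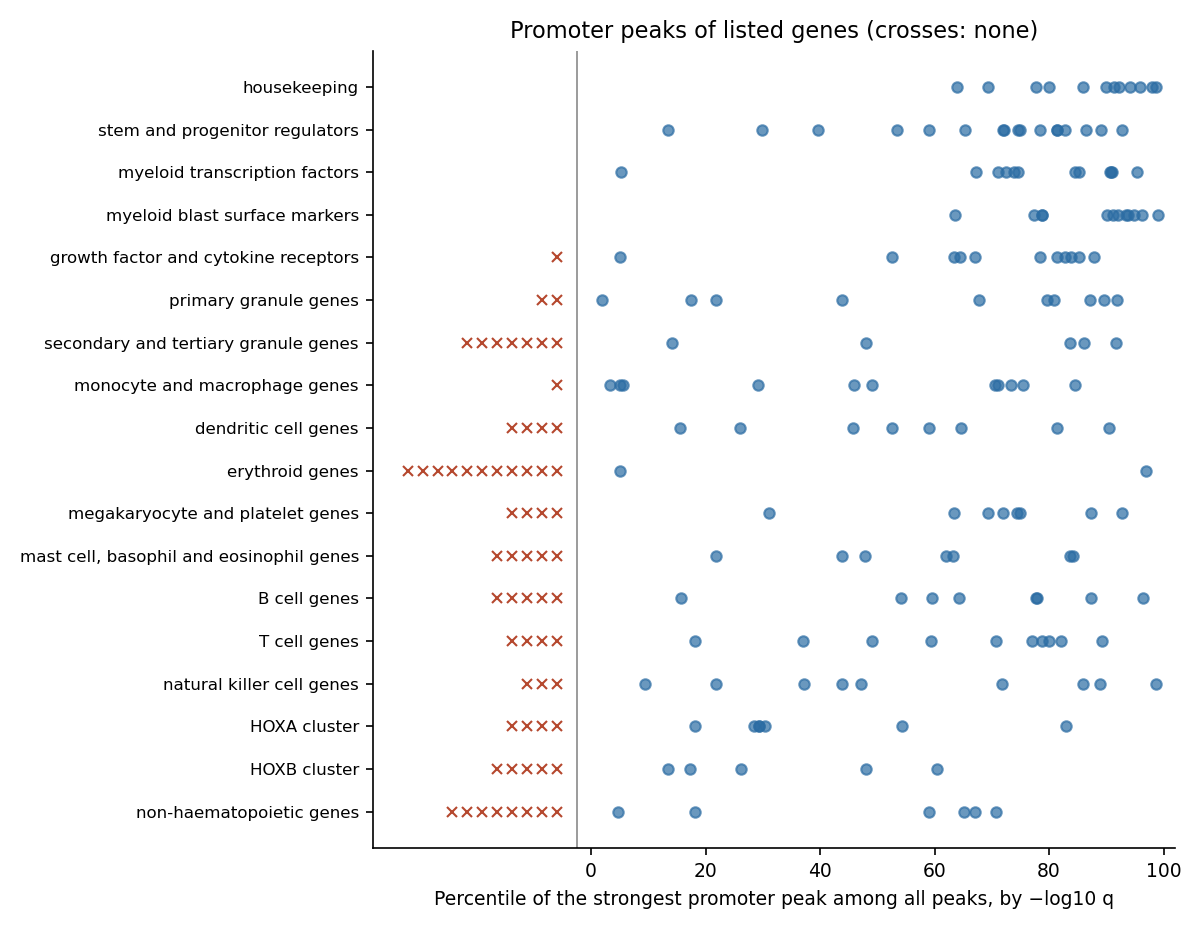
Percentile of the strongest promoter peak of each listed gene (points) among all 187113 peaks ranked by −log10 q, one line for each of 18 gene lists, with a cross left of the vertical line for each gene without a promoter peak. Blast surface markers sit between 63.5 and 99, erythroid genes have 11 crosses, and HOXB genes lie at or below 60.4.

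Erythroid genes had a promoter peak in 2 of 13 cases, the lowest count of the lists at the definition used. It became 5 with 2000 bp on each side of the start and 4 with all annotated starts, and at a −log10 q of at least 10 it was 1, with HOXB genes lower at 0. The alpha globin genes HBA1 and HBA2, the beta-type globins HBB, HBG1 and HBG2, the membrane proteins SLC4A1 and EPB42, the globin chaperone AHSP and the erythroid regulators GATA1 and KLF1 were among the 11 without one. TFRC, the transferrin receptor that dividing cells also use, had a strong peak at 33.2, and EPOR the weak one given above. Distal peaks within 50 kb of these genes ranged widely. The strongest had a −log10 q of 42.2 around HBG1 and HBG2, 32.5 around EPB42, 30.9 around SLC4A1, 25.3 around KLF1, 23.2 around AHSP and 20.8 around HBA1 and HBA2. Around GATA1 there were 2, the stronger at 6.14, and around HBB 3, the strongest at 4.96. The peak of 42.2 starts at 5280563 on chromosome 11. It lies in the same globin locus as HBB, just outside the 50 kb counted for that gene. HBA1 and HBA2, and HBG1 and HBG2, are near-identical pairs in which reads cannot be placed uniquely.

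Megakaryocyte and platelet genes had a promoter peak in 8 of 12 cases (66.7%, against 73.9% of all protein-coding genes). ITGB3 and ITGA2B, the chains of the platelet fibrinogen receptor, had 27.3 and 22.3, and PPBP and VWF 14.9 and 14.5. NFE2 and FLI1, regulators that are also used in myeloid cells, had 13.6 and 12.6. PF4, GP1BA, GP6 and TUBB1 had none, and GP9 had a peak of 8 tags.

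Mast cell, basophil and eosinophil genes had a promoter peak in 7 of 12 cases (58.3%, against 73.9% of all protein-coding genes). CPA3, the mast cell carboxypeptidase, had 20 and FCER1A, the IgE receptor chain, 19.8. HPGDS and CCR3 had 10.2 and 9.96, and SIGLEC8, CLC and IL5RA 6.83, 6.14 and 3.83. TPSAB1, MS4A2, HDC, EPX and PRG2 had none, though HDC had a run of 5 peaks within 4.91 kb inside the gene.

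Dendritic cell genes had a promoter peak in 8 of 12 cases (66.7%, against 73.9% of all protein-coding genes). BATF3 was the strongest at 24.9, FLT3 had the 18.4 given above and LILRA4 10.9. TCF4, the regulator of plasmacytoid cells, had 9.04, CD1C 7.42 and ZBTB46 6.15, and CLEC10A and IRF4 were weak at 3.98 and 3.44. CLEC9A, CLEC4C, CD1A and XCR1 had none.

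Lymphoid genes were near the background in number or, for B cell genes, below it, and some had strong promoter peaks. At a −log10 q of at least 10 the counts were 5 of 13 B cell, 6 of 14 T cell and 4 of 12 natural killer cell genes. These were below the 61.8% of all genes at that limit. B cell genes had a promoter peak in 8 of 13 cases. CD22 had 32.3 with 29 tags, at the 96.4th percentile of all peaks, VPREB1 of the surrogate light chain 22.4, IGLL1 16.3 and CD79A 16.2. CD79B and EBF1 followed with 10.7 and 7.98, and PAX5, the factor that commits cells to the B lineage, had 3.46. The recombinase genes RAG1 and RAG2, DNTT, MS4A1 (CD20) and BLNK had none at the canonical start, and RAG1 and RAG2 gained one when every annotated start was used. RAG1 had its strongest distal peak 3.43 kb upstream, with a −log10 q of 27.3.

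T cell genes had a promoter peak in 10 of 14 cases. LCK had 23.9, but the summit of that peak lay 1098 bp from the start and the peak reached only the outer part of the promoter, so that by its summit it was distal. Of the others BCL11B, CD28, CD3D and TCF7 had 18.6, 17.4, 16.8 and 15.7. CD4, which monocytes also use, had 12.9. CD5, CD8A, CD3E and LEF1 were between 3.80 and 9.19, and CD3G, CD2, GATA3 and ZAP70 had none at the canonical start.

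Natural killer cell genes had a promoter peak in 9 of 12 cases. PRF1, which encodes perforin, had 37.6 with 42 tags, the second strongest promoter peak of all listed genes after ITGAM. TBX21 had 23.6, NKG7 21.3 and EOMES 13.5, whereas GZMB (6.14), GNLY (5.03), FCGR3A (3.83) and NCR1 (2.77) were weak. KLRD1, KLRB1 and KLRF1, which share a region of chromosome 12, had none.

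Most HOX genes had a promoter peak of low −log10 q or none. Of the HOXA genes 7 of 11 had one, and those of HOXA3, HOXA6, HOXA7, HOXA9, HOXA10 and HOXA13 lay between 3.82 and 8.11. HOXA9 had 26 tags, more than CD163 or PPBP, but a fold of only 2.96 over its local background. HOXA7 had 32 tags at a fold of 3.69 and HOXA3 23 at 3.15, while HOXA6 and HOXA10 had 18 each and HOXA13 11. A low −log10 q here thus did not always mean few tags. HOXA2, HOXA4, HOXA5 and HOXA11 had none. In the HOXB cluster HOXB5 had 9.65, HOXB4 6.89 as the strongest of 4, and HOXB2, HOXB3 and HOXB9 between 3.08 and 4.0. Their tags ran from 8 at HOXB9 to 29 at HOXB5. Non-hematopoietic genes had a promoter peak in 6 of 14 cases (42.9%), with APOB the strongest at 12.8 and TNNT2, SYN1 and ACTN2 at 11.4, 11.1 and 9.06. ALB, TTR, MYH7, GFAP, INS, CDH1, KRT5 and DES had none.

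Over all lists, 155 of 219 different genes had a promoter peak. At a −log10 q of at least 10 the number was 99, and the share over all protein-coding genes fell to 61.8%. All 12 blast surface markers and 11 of 12 myeloid transcription factors met this limit, against 6 of 12 primary and 3 of 12 secondary and tertiary granule genes, 5 of 12 monocyte genes, 5 of 13 B cell genes and 1 of 13 erythroid genes. No HOXB gene did.

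Motif letters at the summits separated promoters from distal peaks. The letters searched on both strands within 100 bp of the summit were GAGGAAGT (PU.1), CCGGAAG (ETS), TGTGGTT (RUNX), TTNNGCAA (CEBP), TGANTCA (AP-1), TGACGTCA (CRE), GAAANNGAA (IRF), TTCNNNGAA (STAT), TGATTNAT (HOX-MEIS), CAGCTG (TAL E-box), CACGTG (MYC E-box), GCGCANGCG (NRF1), GGGCGGG (SP/KLF), CCAATCAG (NFY), CAAAGTCCA (HNF4) and CTAAAAATA (MEF2), with AGATAAG for factors of the GATA family and the longer CTCF consensus. Each share is given beside that in 287244 windows of the same length placed 2000 bp from distal summits where no peak was. Those windows had a median GC content of 41.8%, distal summits 45.8% and promoter summits 59.7%, and the shares are not adjusted for this. They are also not adjusted for repeated sequence or for where reads can be placed.

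CTCF, the insulator protein, had the largest ratio. Its consensus was found in 3.71% of distal peaks (interval 3.61 to 3.80%) and 0.0331% of flanking windows, a ratio of 112. Its share rose from 0.630% in the weakest decile of distal peaks to 8.40% in the ninth and 8.21% in the tenth. PU.1 letters were in 8.16% of distal peaks (8.02 to 8.30%) against 0.888% of windows, a ratio of 9.19. RUNX letters followed with 12% against 3.55% (ratio 3.39), and AP-1 letters with 15.9% against 6.01% (ratio 2.65). In the weakest and the strongest decile RUNX letters were in 10.3 and 16.0% and AP-1 letters in 14.4 and 18.9%, while PU.1 stayed between 8.26 and 9.01% from the third decile up.

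CEBP letters were about as frequent at distal peaks as beside them, 11.7% (11.6 to 11.9%) against 10.3%, a ratio of 1.13. IRF letters had a ratio of 1.07, GATA letters 1.4, and STAT and HOX-MEIS letters 0.874 and 0.923. The CEBP consensus used has 2 free positions. A stricter palindrome, TTGCGCAA, chosen after these values were seen, was found in 70 distal peaks (0.0469%) with a ratio of 2.14, and TGATGCAA, the joint site of CEBP and ATF factors, in 0.942% with a ratio of 1.46. HNF4 and MEF2 letters had ratios of 0.792 and 0.192. Their shares in flanking windows were unlike, 0.269 and 4.31%, so these ratios are no control for the others. Why MEF2 letters are so frequent in flanking windows was not tested.

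At promoters the order was another. SP/KLF letters were in 24.7% of promoter peaks and 2.55% of distal peaks, ETS letters in 6.71 and 1.24%, NRF1 letters in 4.15 and 0.150%, and CRE letters in 1.09 and 0.141%. PU.1, RUNX and AP-1 letters were less frequent at promoters than at distal peaks, with 4.0, 5.49 and 8.24%. TAL E-box letters had nearly the same share in both, 14.3 and 13.6%.

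**Figure D5:**
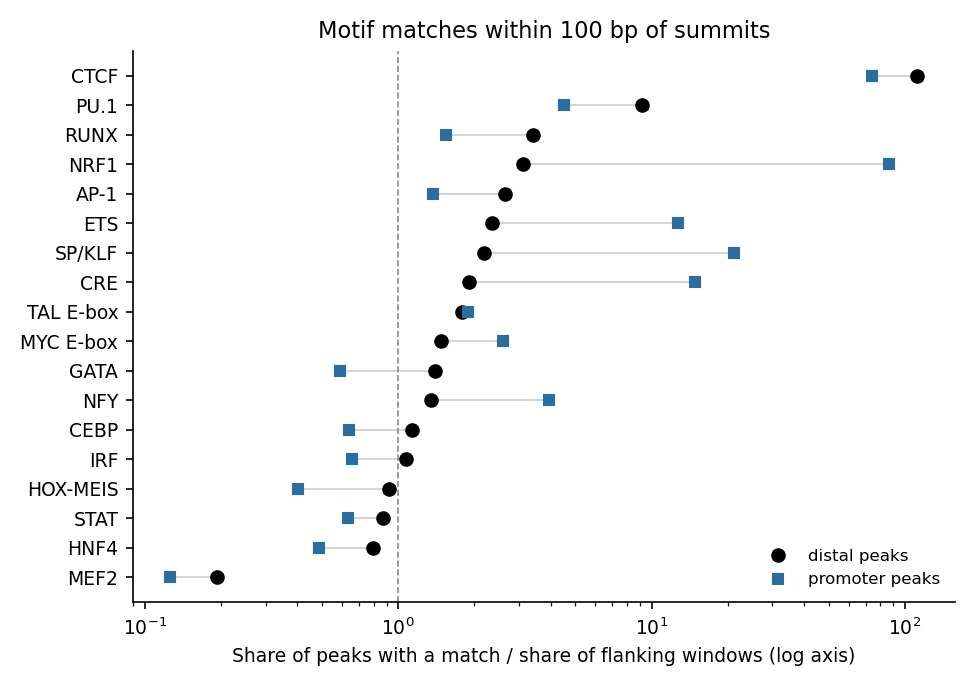
Ratio of the share of peaks with a motif match within 100 bp of the summit to the share of flanking windows with a match, on a log axis, for distal peaks (circles) and promoter peaks (squares), with the dashed line at 1. Distal ratios are 112 for CTCF, 9.19 for PU.1 and 3.39 for RUNX, and the promoter ratio of NRF1 is 86.3.

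Matches to CTCF, PU.1, AP-1 and RUNX lay closer to the summit than to the centre of flanking windows. Among distal peaks with a match, the nearest match was centred within 25 bp of the summit in 59.5% for CTCF, 48.4% for PU.1, 42.4% for AP-1 and 39.9% for RUNX. In flanking windows with a match, the share within 25 bp of the window's centre was between 26.2 and 27.2% for these 4. For CEBP letters it was 26.2% at peaks and 26.7% in windows, and for IRF letters 25.5 and 27.9%.

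Matches to PU.1, RUNX and AP-1 were found together less often than apart. RUNX letters were in 7.96% (7.49 to 8.46%) of distal peaks with PU.1 letters and in 12.4% (12.2 to 12.6%) of those without. For AP-1 letters the values were 11.2 and 16.3%. CEBP letters were slightly more frequent beside PU.1 letters, 13.2% (12.6 to 13.8%) against 11.6%. Flanking windows showed differences in the same directions, since those with PU.1 letters had RUNX letters in 2.35%, AP-1 letters in 5.45% and CEBP letters in 11.2% of cases, against 3.55, 6.01 and 10.3% of all flanking windows. The flanking shares have no interval and the AP-1 difference there was small, so whether the differences are particular to peaks was not tested. Peaks with the CTCF consensus had PU.1 letters in 1.10%, AP-1 letters in 5.28% and RUNX letters in 4.13% of cases. In flanking windows with that consensus the shares were 1.05, 4.21 and 2.11%. Only 0.0331% of flanking windows held the consensus, so these shares rest on few windows and cannot be compared closely. Any of PU.1, RUNX, AP-1, CEBP and CTCF letters were in 43.8% of distal peaks and 19.5% of flanking windows.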

How the data were processed

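Peaks of the EV, DMSO group were used, and the other 5 lists of the series were only counted. According to the labels and the study's methods, the authors used Trim Galore 0.6.6 for trimming, Bowtie2 2.4.4 for alignment to the hg38 genome, Picard for the removal of duplicates and MACS2 2.2.5 for peak calling on both replicates pooled. The methods give these steps for both assays under 1 heading, in sentences that name ChIP-seq reads. A correction for the Tn5 offset and filters on mitochondrial reads or mapping quality are not given in the sources used here. The deposited values of each peak are the fold enrichment, a ratio of the pileup to the local background, the −log10 p and −log10 q, and the distance of the summit from the start of the peak.

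Tags and background were solved from the deposited fold, taken as (tags + 1) / (background + 1), and the Poisson p-value. A whole number of tags, within 0.001 of the deposited −log10 p, was found for 100% of peaks, and the depth followed from the lowest background and an assumed genome size of 2700000000 bp. Summits were classed on GENCODE release 44 as promoter, exon, intron or intergenic, in that order, and genes by their canonical transcript. Motifs were exact matches. Named genes are members of 18 lists (219 different genes, all found in the annotation and counted, of which some are not reported here by name) and those nearest to the strongest, widest and tallest peaks, in the longest runs and in the densest windows. The peaks and lists were chosen with earlier results of these data known. The gene families, receptor loci, mitochondrial words, genes with most peaks, motif positions and pairs, and the sequences with a single motif were added after values were seen. The sequences of the 2 strongest distal peaks are not shown. No test between groups was made. In simulated data the scripts recovered 100% of the quantities. Tags were simulated for 4811 peaks, and the other steps were run on smaller sets. The tags were simulated with the formulas used to solve them, so this checks the calculation only. Python 3.11.15, numpy 2.4.6, pandas 2.3.3, scipy 1.17.1, matplotlib 3.10.9 and samtools 1.23.1 were used. Other promoter widths and starts, a −log10 q of at least 10, and other gaps, windows and motif reaches were tried as alternatives.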

Additional observations from a re-analysis of the deposited data

How the results depend on the processing

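Of 135 recomputed values, 89 stayed within their interval or within 1.5 times the count. The promoter share of 20.3% became 15.2 and 26.8% with 500 and 2000 bp on each side, 15.7% with protein-coding starts only, 21.1% by any overlap and 27.9% at a −log10 q of at least 10. That limit also raised the median width from 153 to 321 bp. Genes with a promoter peak, 73.9%, became 70.7 and 78.3% with the narrower and wider promoter, 79.9% with all starts, 73.0% by the summit and 61.8% at the limit. At the same limit the members with a promoter peak fell from 155 to 99, and by list to 6 primary granule, 3 secondary and tertiary granule, 5 monocyte, 3 dendritic, 1 erythroid, 3 mast cell, basophil and eosinophil, 5 B cell, 6 T cell, 4 natural killer, 1 HOXA, 0 HOXB and 3 non-hematopoietic genes. With 2000 bp, 9 secondary and tertiary granule genes and 5 erythroid genes had a peak, and with all starts 4 erythroid genes did. Runs of 10 or more numbered 30 and the longest had 15 peaks with gaps of 4000 bp, against 0 and 9. The rank correlation in windows, 0.66, became 0.61 in windows of 500 kb and with all annotated genes, 0.74 at the limit and 0.49 for distal peaks. Distal motif shares within 50 and 200 bp and at the limit were 6.08, 9.55 and 8.56% for PU.1, 7.87, 16.1 and 14.1% for RUNX and 10.7, 21.8 and 16.6% for AP-1. For CEBP they were 5.61 and 21.6% within 50 and 200 bp, and for CTCF 3.14% within 50 bp and 7.33% at the limit.

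No paired analysis was possible because the list pools both replicates, and no value without a replicate was computed for the same reason. The depth limits which peaks were detected, and a percentile depends on the local background.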
